A study of Homo sapiens with 15 samples.

Results

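The MYC, MAX and MNT network was followed by RNA-seq in HEK-293T, a cell line from human embryonic kidney, in which Cas9 had been used to disrupt the transcription factor gene THAP1. Its 10 members were taken by gene name: MYC, MYCN, MYCL, MAX, MNT, MXI1, MXD3, MXD4, MLX and MGA. Each stood on 1 of the 35805 lines of the deposited table, and all 10 were among the 16787 genes with enough signal to be tested. The study compared 5 groups of 3 libraries: untransduced cells, cells transduced with Cas9 and sg1-Control or sg2-Control, and cells transduced with Cas9 and sg1-THAP1 or sg2-THAP1. The control guides cut introns of genes outside the network, and the libraries of both are called sgControl together (6 libraries), as those of both THAP1 guides are called sgTHAP1 (6 libraries). Per the paper, the THAP1 guides acted in a line grown from 1 clone that carried GFP at its own PSMB5 gene and was given extra PSMB5 to survive. The cells with dim GFP were then sorted as a population rather than as clones. The sources used here do not say whether the control and untransduced cells were sorted or carried the extra PSMB5, so the guide, the sort and the extra gene cannot be told apart where they differ between groups.

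MYC, MYCN and MYCL are transcription factors that bind DNA as dimers with MAX, mostly at the E-box CACGTG, and activate genes of ribosome production, nucleotide synthesis and growth. MNT and the MXD proteins (MXI1 is also called MXD2) pair with the same MAX, bind the same E-boxes and recruit SIN3 corepressors, so that they oppose MYC. MNT is the most widely expressed of these antagonists, MGA joins MAX to a Polycomb complex, and MLX is a MAX-like partner that links MNT, MXD1 and MXD4 to the glucose-sensing factors MLXIP (MondoA) and MLXIPL (ChREBP).

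The start regions of 9 members were searched for 3 motifs on both strands, in RefSeq windows (GRCh38.p14) of 250 bases before to 50 after a gene's start, with 14 windows for the 9 genes and none used for MYC. The E-box CACGTG, which the network itself reads, was in 7.26% of all 35116 windows and in those of MNT, MXD4 and MLX. The YY1 core AANATGGC, the site of a factor that the study's paper links to THAP1, was in 6.58% of all windows and, among the members, only in that of MNT. The THAP1 consensus TNNNGGCA was in 41.7% of all windows, with a match in a window of MYCL, MAX, MXI1, MXD3 and MGA and none in that of MNT. Counted by gene, with a match in any window, the E-box was in 8.77% of 27305 genes and 3 of the 9 members. By gene the YY1 core was in 7.97% and 1 of 9, and the THAP1 consensus in 46.7% and 5 of 9, both near the share of all genes. Each line below gives 30 bases on the gene's own strand with the motif in capitals, for the antagonists MNT and MXI1 that fell with THAP1 guides, for MGA, which differed between those guides, and for the other 2 genes with an E-box.
MNT, E-box, chr17:2401236-2401265, minus strand: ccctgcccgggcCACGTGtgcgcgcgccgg
MNT, YY1 core (reverse), chr17:2401045-2401074, minus strand: ggtgcctcctcGCCATCTTgttgcaaagcc
MXD4, E-box, chr4:2262330-2262359, minus strand: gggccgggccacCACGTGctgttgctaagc
MLX, E-box, chr17:42567038-42567067, plus strand: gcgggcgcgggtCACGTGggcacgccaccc
MXI1, THAP1 consensus, chr10:110225870-110225899, plus strand: tgcactacgatTCCCGGCAgccgcgggcgg
MGA, THAP1 consensus, chr15:41621175-41621204, plus strand: agaggtgccttTCCCGGCAtgctctgcagc
The E-box began 193 bases before the MNT start, 238 before that of MXD4 and 50 before that of MLX, and the YY1 core of MNT began 3 bases before its start and ran across it. A match of letters is a description and not a bound site.

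The libraries held 30400149 to 56638461 reads, the median was 35470697 for sgControl and 31716266 for sgTHAP1, and levels were RPM, the reads of a gene scaled to the library's total, on a log2 scale (log2 RPM). The 6 HEK-293T markers (PAX2, SALL1, LHX1, IRS4, NEFM, NEFL) were expressed in every library, and their summed level was 893 to 896 RPM without a guide, 773 to 864 RPM with control guides and 640 to 722 RPM with THAP1 guides. Among them IRS4 lay at 8.67 to 8.74 log2 RPM with control guides and at 7.28 to 7.36 with THAP1 guides, while NEFM lay at 8.09 to 8.40 and at 8.61 to 8.89. Their part in the results was not tested. Markers of the other lines the laboratory used summed to at most 3.09 RPM over 12 genes, and 8 of the 12 had under 10 reads in every library. The THAP1 transcript itself was higher in sgTHAP1 libraries (5.48 to 6.18 log2 RPM) than in sgControl (3.25 to 3.57) and untransduced libraries (3.36 to 3.46), without overlap. This level set the libraries with THAP1 guides apart. It does not show that the gene was disrupted, since small deletions need not lower a transcript, and the reason for the rise was not tested. Libraries that share a guide were counted as independent. In bulk libraries, fewer cells of a type and less RNA per cell cannot be told apart.

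MYC was the dominant activator at the RNA level, and MNT was a minor repressive partner. Divided by the merged exon length of each gene, the mean level of MYC was 27.8 RPM per kb in untransduced, 25.3 in sgControl and 21.2 in sgTHAP1 libraries, and its libraries did not overlap those of the next gene in any of the 3. MYC made up 94.0% ± 0.651 (SD, n = 3) of the summed activator level in untransduced and 97.9% ± 0.386 (SD, n = 6) in sgControl libraries. In sgControl libraries MAX (13.4 RPM per kb), MXD4 (13.4) and MLX (13.1) followed with overlapping libraries, then MXD3 (9.60), MXI1 (5.91), MNT (4.79), MGA (2.34), MYCL (0.522) and MYCN (0.0313), each below the one before without overlap. In sgTHAP1 libraries MLX and MAX overlapped, as did MXD3 and MXD4, and MNT at 2.40 overlapped MGA at 2.38 RPM per kb. The order depended on the length used: by the canonical transcript MXD3 led with 42.7 RPM per kb in sgControl libraries, and it overlapped MAX (41.8), which overlapped MYC (41.5).

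**Figure D1:**
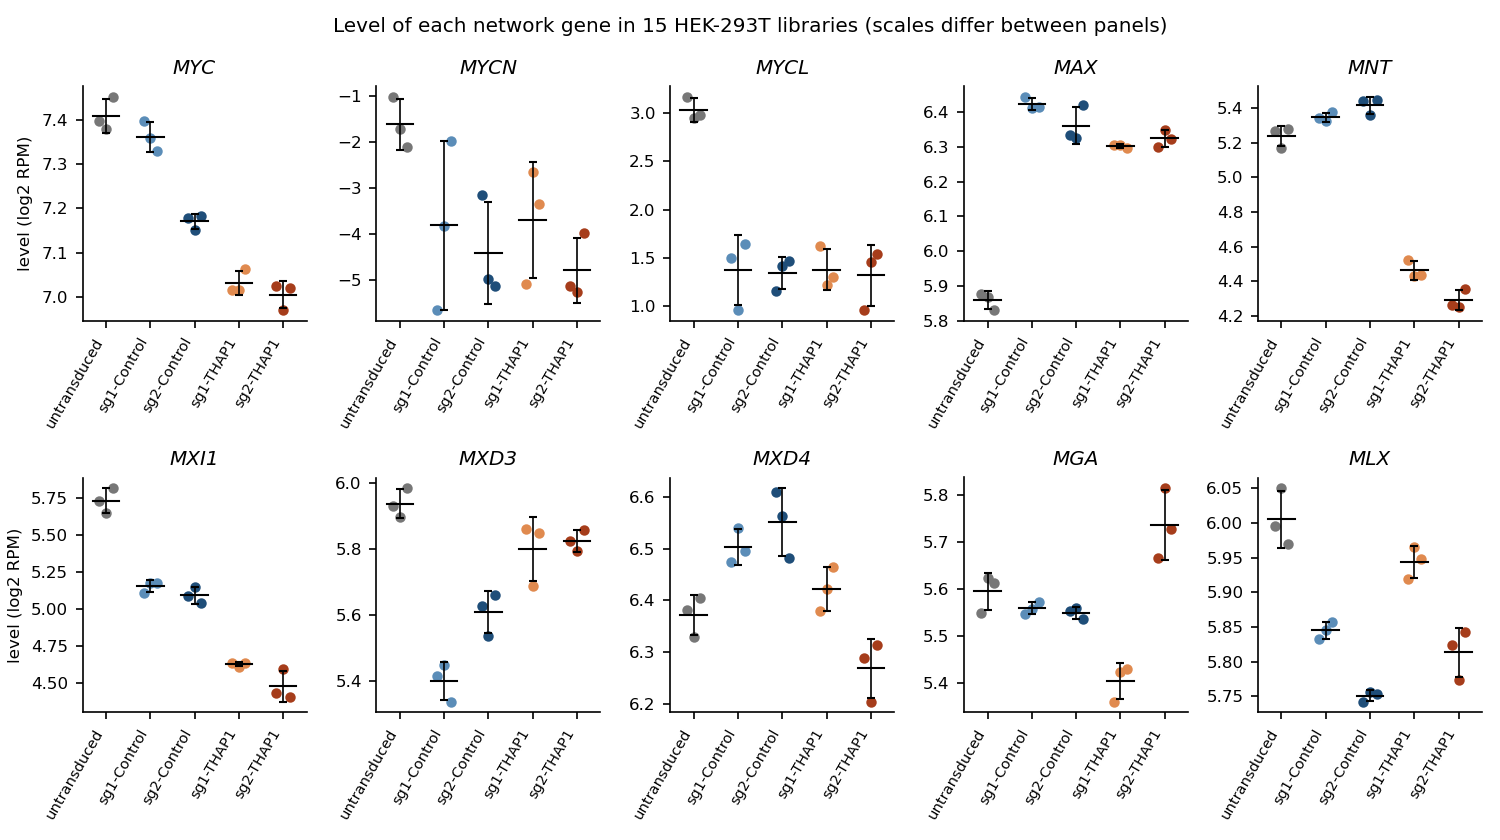
Level of each network gene in log2 RPM (y axis, a separate scale for each panel) in the 3 libraries of each of the 5 groups (points), with the mean (bar) and SD (whisker). MNT lies between 4.26 and 4.53 in the 6 sgTHAP1 libraries and at 5.17 or above in the other 9, while MYCL separates untransduced cells from all cells with a guide.

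The comparison of sgTHAP1 with sgControl asked which genes change when THAP1 is disrupted. MNT fell to 49.9% of its control level, MXI1 to 67.3%, MXD4 to 88.1% and MAX to 94.7%, and on the activator side MYC fell to 84.2%. MXD3 rose to 124%. Thus 5 members were lower and 1 was higher at an adjusted p under 0.05, where 32.6% of all tested genes were lower and 20.2% higher (52.8% in either direction). The libraries of 5 members did not overlap between sgTHAP1 and sgControl, as for 30.9% of all tested genes. The members' 6 of 10 is close to the background of calls, and their median log2 difference was -0.10, against -0.06 over all tested genes. Under the stricter limits of the study's paper (adjusted p under 0.001 and a change above 2-fold, applied here without the paper's prior removal of genes that differed between untransduced and control cells), MNT alone passed, where 2.18% of all tested genes did, and it sat at the line.

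MNT, the broadly expressed MAX partner that opposes MYC, changed most among the members. In the deposited coordinates (GRCh38) the gene lies at chr17:2384060-2401118 on the minus strand. Its level was 5.27, 5.17 and 5.28 log2 RPM in the untransduced libraries. It was 5.34, 5.32 and 5.37 with sg1-Control and 5.44, 5.36 and 5.44 with sg2-Control. It was 4.53, 4.43 and 4.44 with sg1-THAP1 and 4.26, 4.26 and 4.36 with sg2-THAP1. All 6 sgTHAP1 libraries were thus below the other 9, as were those of 12.9% of all tested genes. In reads, these were 1308 to 2269 for the 6 sgControl libraries and 614 to 980 for the 6 sgTHAP1 libraries. The log2 difference from sgControl was -1.0 ± 0.048 (SE, limma adjusted p = 1.66e-12), and 5.53% of tested genes differed by more. A two-sided exact permutation test of 6 against 6 libraries gave p = 0.00216, which is as low as that test can go. With a pseudocount of 0.5 RPM, after quantile normalization or median centring, or without sg2-Control replicate 1 or 3 or any 1 sg2-THAP1 replicate, no member was past 2-fold.

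The fall of MNT was seen with both guides and was larger with sg2-THAP1. Against sgControl the log2 difference was -0.92 ± 0.045 with sg1-THAP1 and -1.09 ± 0.045 with sg2-THAP1 (SE, limma adjusted p = 2.02e-21 and 5.47e-24). The difference between the THAP1 guides was itself past the threshold, at -0.17 ± 0.052 (limma adjusted p = 0.0068), and their libraries did not overlap. Between the control guides MNT differed by 0.07 on the log2 scale (limma adjusted p = 0.563, 95% interval -0.03 to 0.17).

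MXI1, an antagonist of the MXD family at chr10:110207605-110287365, fell with control guides and fell further with the THAP1 guides. Its level was 5.73, 5.65 and 5.82 log2 RPM in untransduced libraries. It was 5.11, 5.18 and 5.18 with sg1-Control and 5.09, 5.15 and 5.04 with sg2-Control. It was 4.64, 4.61 and 4.64 with sg1-THAP1 and 4.43, 4.60 and 4.41 with sg2-THAP1. The 3 conditions formed steps with no overlap between them. sgTHAP1 differed from sgControl by -0.57 ± 0.049 (SE, log2, limma adjusted p = 7.42e-09) and from untransduced cells by -1.18 ± 0.060 (limma adjusted p = 6.18e-13), where it fell to 44.1%. The THAP1 guides differed from each other by -0.15 ± 0.054 (limma adjusted p = 0.0226). That call was lost when replicate 1 or replicate 3 of either THAP1 guide was left out (-0.15 to -0.11) and with voom (-0.15).

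MXD3 and MXD4, the other antagonists of that family, moved in opposite directions. MXD3 had 5.42, 5.45 and 5.34 log2 RPM with sg1-Control, 5.63, 5.54 and 5.66 with sg2-Control, 5.86, 5.69 and 5.85 with sg1-THAP1 and 5.82, 5.79 and 5.86 with sg2-THAP1. It was higher in sgTHAP1 than in sgControl libraries by 0.31 ± 0.050 (SE, log2, limma adjusted p = 3.33e-05), without overlap. The control guides themselves differed at MXD3 by 0.21 ± 0.046 (limma adjusted p = 0.00426; 0.18, 0.0609 without sg1-Control replicate 3), and against sg2-Control alone the rise was 0.20 ± 0.040 (limma adjusted p = 3.13e-05). MXD3 shares exons with PRELID1 on the other strand (mean 11103 reads a library, against 1929 for MXD3) and with RAB24 on its own strand (1802 reads), and as the use of strand in counting is not given, its value is uncertain.

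MXD4 had 6.47 to 6.61 log2 RPM in sgControl (median 6.52) and 6.20 to 6.46 in sgTHAP1 libraries (median 6.35). The groups did not overlap, and the difference was -0.18 ± 0.041 (SE, log2, limma adjusted p = 0.000829). It was -0.11 ± 0.033 with sg1-THAP1 and -0.26 ± 0.033 with sg2-THAP1, and the guides differed by -0.15 ± 0.038 (limma adjusted p = 0.00123). Relative to the median of all genes the pooled difference was -0.12, with -0.00064 for sg1-THAP1 and -0.23 for sg2-THAP1. After median centring, at -0.07, MXD4 no longer passed the threshold.

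MYC, the main activator, fell less than MNT and MXI1. Its level was 7.40, 7.38 and 7.45 log2 RPM in untransduced libraries, 7.40, 7.36 and 7.33 with sg1-Control and 7.18, 7.15 and 7.18 with sg2-Control. It was 7.02, 7.02 and 7.06 with sg1-THAP1 and 7.02, 6.97 and 7.02 with sg2-THAP1. All sgTHAP1 libraries lay below the other 9. The difference from sgControl was -0.25 ± 0.040 (SE, log2, limma adjusted p = 2.78e-05), and 48.0% of tested genes differed by more. The control guides differed by -0.19 ± 0.031 (limma adjusted p = 5.87e-05), so that the MYC difference was -0.34 ± 0.027 against sg1-Control and -0.15 ± 0.027 against sg2-Control. Between the THAP1 guides the difference was -0.03 (95% interval -0.09 to 0.03).

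MYCL and MYCN, the paralogs of MYC, were low and were not called between sgTHAP1 and sgControl. MYCL had 79 to 143 reads in sgControl and 62 to 139 in sgTHAP1 libraries, and the log2 difference was -0.01 with a 95% interval of -0.26 to 0.25. MYCN had 1 to 9 reads in sgControl and 0 to 5 in sgTHAP1 libraries, so a change between them was not detectable at this depth. MYCN passed the filter through 2 untransduced libraries and 1 sg1-Control library.

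MAX, the shared partner, had 6.33 to 6.44 log2 RPM in sgControl (median 6.41) and 6.30 to 6.35 in sgTHAP1 libraries (median 6.31), which overlapped. The difference of -0.08 ± 0.030 (SE, log2, limma adjusted p = 0.0339) was -0.01 from the median of all genes. The call was lost with quantile normalization (-0.02), against sg2-Control alone (-0.05), with sg2-THAP1 alone (-0.07) and without any 1 of 8 libraries (-0.08 to -0.07, namely sg1-Control replicates 1, 2 and 3, sg2-Control replicate 3, sg1-THAP1 replicates 1, 2 and 3 and sg2-THAP1 replicate 1), and median centring turned it to 0.03. Part of MAX lies opposite FNTB and the read-through gene CHURC1-FNTB (730 and 1448 reads a library on average, against 2878 for MAX).

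MLX (0.08) and MGA had no call over both guides together, and with each guide MGA went another way. MGA had 5.36, 5.42 and 5.43 log2 RPM with sg1-THAP1 and 5.67, 5.81 and 5.73 with sg2-THAP1, and the 6 sgControl libraries lay between them at 5.54 to 5.57. Against sgControl the log2 difference was -0.15 ± 0.038 with sg1-THAP1 and 0.18 ± 0.038 with sg2-THAP1 (SE, limma adjusted p = 0.000714 and 6.84e-05), and between the guides it was 0.33 ± 0.044 (limma adjusted p = 4.25e-08). MLX had 5.92, 5.97 and 5.95 with sg1-THAP1, 5.82, 5.77 and 5.84 with sg2-THAP1 and 5.74 to 5.86 in sgControl libraries. Its log2 difference was 0.15 ± 0.034 with sg1-THAP1 (limma adjusted p = 0.000251) and 0.02 ± 0.034 with sg2-THAP1 (limma adjusted p = 0.727). Over both guides MLX was called higher with 1 coefficient per guide (0.08), against sg2-Control alone (0.13), after quantile normalization (0.12) or median centring (0.19) and without sg2-THAP1 replicate 2 (0.10), and MGA after median centring (0.13). MLX shares exons with PSMC3IP on the other strand (2265 reads a library on average, against 2158).

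In all, the THAP1 guides differed at 5 of 10 members (4 lower and 1 higher with sg2-THAP1), where 40.0% of all tested genes differed (11.7% lower and 28.3% higher). The control guides differed at 2 of 10, where 3.88% of all tested genes did. MNT, MXI1, MXD4 and MYC fell and MXD3 rose past the threshold with each THAP1 guide on its own. With sg1-THAP1, however, MXD4 (-0.106) moved with the bulk of genes, whose median was -0.105.

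**Figure D2:**
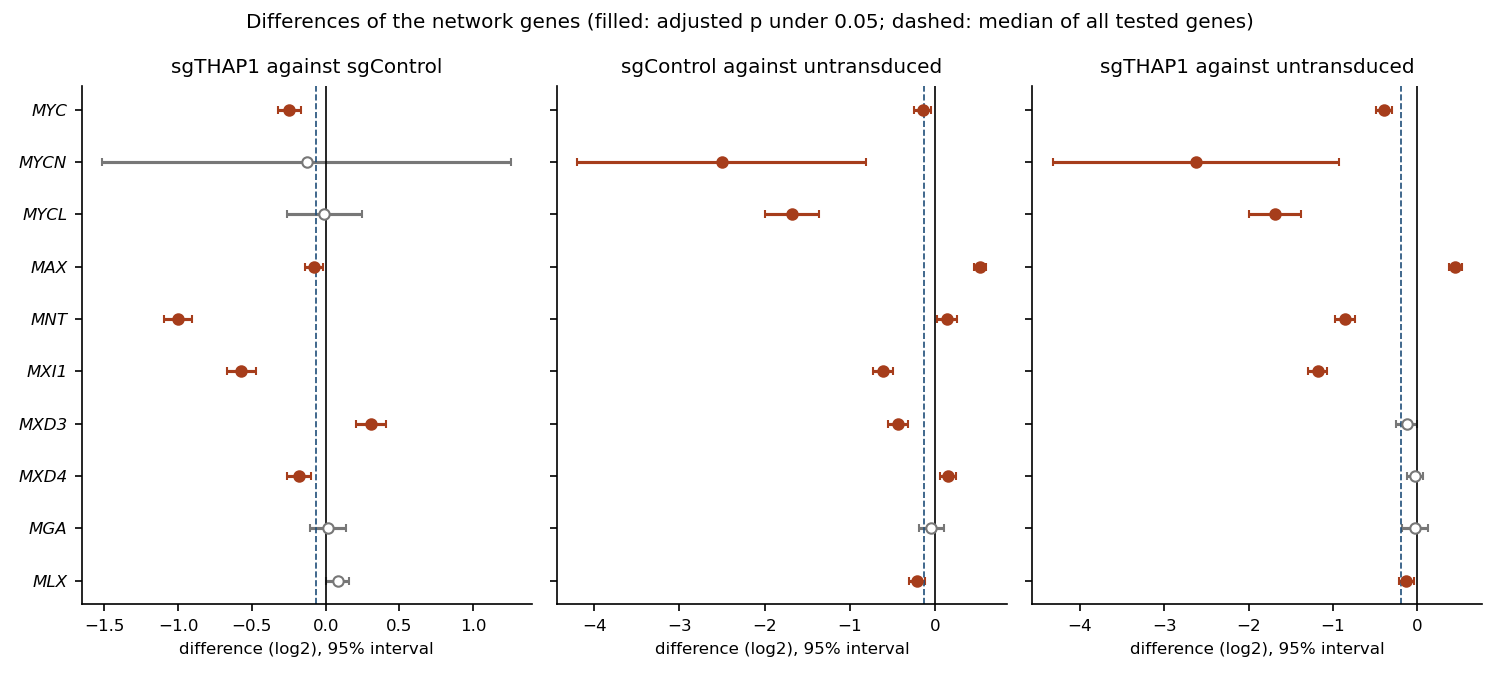
Log2 difference of each network gene (x axis, point with 95% interval, filled where the limma adjusted p was under 0.05) in the 3 pooled comparisons, with 0 as a solid and the median of all tested genes as a dashed line. MNT and MXI1 lie farthest left with THAP1 guides, and MYCN and MYCL with any guide.

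The control guides were compared with untransduced cells as the background for the THAP1 guides, and whatever else set these cells apart cannot be told apart from transduction, Cas9 and the cut. In sgControl libraries 3 members were higher and 6 lower at an adjusted p under 0.05, where 28.1% of all tested genes were higher and 40.5% lower (68.6% in either direction). With quantile normalization, with sg1-Control alone and without untransduced replicate 2 the count was 6 members in place of 9. Without untransduced replicate 2 MYCN failed the filter, so that only 9 members were tested there. MYCN is among the 6 lower members, and its call is no support, as given below. The median over all tested genes was itself -0.12 on the log2 scale, and -0.20 for sgTHAP1 against untransduced cells, and changes near these values are changes with the bulk of genes.

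The low activators carried the largest of these differences. MYCN passed the filter through untransduced replicates 1 and 2, where it was highest, and sg1-Control replicate 3, so its call is no support. MYCL had 3.17, 2.95 and 2.98 log2 RPM in untransduced libraries and 0.96 to 1.65 in sgControl libraries (median 1.44), without overlap, and it fell to 31.3% (log2 -1.68 ± 0.160 SE, limma adjusted p = 1.21e-08), the only member past the paper's limits, which 11.0% of all tested genes passed. With THAP1 guides it was at 31.1% of untransduced cells. MYCN had 15, 11 and 7 reads in untransduced libraries against 1, 4 and 9 with sg1-Control and 4, 1 and 1 with sg2-Control. It passed the test (limma adjusted p = 0.0151), but sg1-Control replicate 3 overlapped the untransduced libraries, and the call was lost after quantile normalization and with sg1-Control alone (adjusted p = 0.0837 and 0.0613).

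MAX rose, and of its repressive partners MXI1 and MXD3 fell while MXD4 rose. MAX had 5.88, 5.87 and 5.83 log2 RPM in untransduced libraries, all below the 6 sgControl libraries, and was higher in sgControl by 0.53 ± 0.037 (SE, log2, limma adjusted p = 1.12e-10). MXI1 fell by 0.61 ± 0.060 on the log2 scale (limma adjusted p = 2.06e-08) and MXD3 by 0.43 ± 0.062 (limma adjusted p = 3.49e-06), each without overlap. MLX fell by 0.21 ± 0.048 (limma adjusted p = 0.000735), and MXD4 rose by 0.16 ± 0.050 (limma adjusted p = 0.0096).

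Pooled over the control guides, MYC and MNT moved little. MYC was lower by -0.14 ± 0.049 (SE, log2, limma adjusted p = 0.0139), -0.02 from the median of all genes, and its libraries overlapped. The MYC call was lost with sg1-Control alone (-0.05) and without untransduced replicate 3 (-0.12). With sg2-Control alone MYC was lower by -0.24 (limma adjusted p = 5.04e-09), without overlap. MNT was higher by 0.14 ± 0.059 (limma adjusted p = 0.0392), a call lost after quantile normalization (0.13), against sg1-Control alone (0.11), and without any 1 untransduced library, sg1-Control replicate 3 or sg2-Control replicate 1 or 3 (0.11 to 0.16). MXD4 lost its call after quantile normalization (0.03) and without untransduced replicate 2 (0.13), and MLX after median centring (-0.05). MGA did not pass (-0.04, 95% interval -0.19 to 0.11).

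Against untransduced cells, sgTHAP1 libraries had 7 members called, 1 higher (MAX, to 137%) and 6 lower, where 72.4% of all tested genes were called (26.9% higher and 45.5% lower). MYCL and MXI1 were past 2-fold at an adjusted p under 0.001, as were 15.9% of all tested genes. MNT fell to 55.1% (log2 -0.86 ± 0.059 SE, limma adjusted p = 6.02e-11) and MYC to 76.3% (-0.39 ± 0.049, limma adjusted p = 4.75e-07). MXD3, at 5.93, 5.90 and 5.98 log2 RPM in untransduced libraries, did not pass (-0.13, limma adjusted p = 0.0749), although its libraries did not overlap and it was called lower after quantile normalization (-0.16), with 1 coefficient per guide (-0.13), with sg1-THAP1 alone (-0.14) and with sg2-THAP1 alone (-0.11). MXD4 did not pass either (-0.03, -0.12 to 0.07), but was called lower with sg2-THAP1 alone (-0.10). MGA was called lower with sg1-THAP1 alone (-0.19) and higher with sg2-THAP1 alone (0.14, limma adjusted p = 0.00385), and it was not called over both guides. MYCN, at 0 to 5 reads with THAP1 guides, is among the 6 lower. It passed the filter mainly through untransduced libraries, where it was highest, so its call is no support. The MYCN call was lost after quantile normalization and with sg1-THAP1 alone (adjusted p = 0.0621 and 0.0730). MLX, at 91.6%, lost its call with sg1-THAP1 alone (-0.06) and without untransduced replicate 2 (-0.10). After median centring all 10 members were called, 5 higher and 5 lower. MLX was then called in the opposite direction (0.144), and MXD3 (0.145), MXD4 (0.244) and MGA (0.246) were called higher.

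Set side by side as levels per kb, MNT shrank within the repressive partners, while the ratio of the summed activators to the summed partners depended on the lengths used. The MNT share of the summed level of MNT, MXI1, MXD3, MXD4 and MGA was taken by merged exon lengths. It was 10.6% ± 0.180 (SD, n = 3) in untransduced, 13.3% ± 0.369 (n = 6) in sgControl and 7.37% ± 0.399 (n = 6) in sgTHAP1 libraries, with no overlap. The gap from MYC to MNT was 2.68 ± 0.038 (log2 RPM per kb, SD, n = 3) in untransduced, 2.40 ± 0.148 (n = 6) in sgControl and 3.15 ± 0.096 (n = 6) in sgTHAP1 libraries. The gap from MAX to MNT was 1.10 ± 0.073, 1.49 ± 0.081 and 2.41 ± 0.118 in the same order.

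The summed activators minus the summed repressive partners gave -0.46 ± 0.014 (log2, SD, n = 3) in untransduced, -0.36 ± 0.046 (n = 3) with sg1-Control, -0.62 ± 0.028 (n = 3) with sg2-Control, -0.59 ± 0.023 (n = 3) with sg1-THAP1 and -0.56 ± 0.016 (n = 3) with sg2-THAP1. The control guides stood farther from each other than sgTHAP1 (-0.58 ± 0.023, n = 6) stood from either mean of sgControl or untransduced cells, so by this length the summed ratio did not shift beyond the spread of the controls. By canonical transcript lengths, a choice added after the values were seen, the sgTHAP1 libraries lay at -1.36 to -1.27, below the sgControl libraries at -1.25 to -0.88 and the untransduced ones at -1.15 to -1.12. By merged exon lengths the activator sum was 25.8 ± 1.90 RPM per kb (SD, n = 6) in sgControl and 21.8 ± 0.427 in sgTHAP1 libraries. The repressive sum by these lengths was 36.1 ± 1.14 and 32.5 ± 0.915. By canonical lengths MXD3 was the largest repressive partner, with means of 42.7 in sgControl and 52.7 in sgTHAP1 libraries. From sgControl to sgTHAP1 libraries, canonical lengths took MXD4 from 23.8 to 21.0, MXI1 from 10.1 to 6.79 and MNT from 8.46 to 4.23. MGA went from 3.85 to 3.92. The rise of MXD3 nearly offset these falls. The fall of the repressive sum was thus seen by merged exon lengths and not by canonical lengths. These sums are of RNA and not of protein, and the uncertain MXD3 has a large weight in them.

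**Figure D3:**
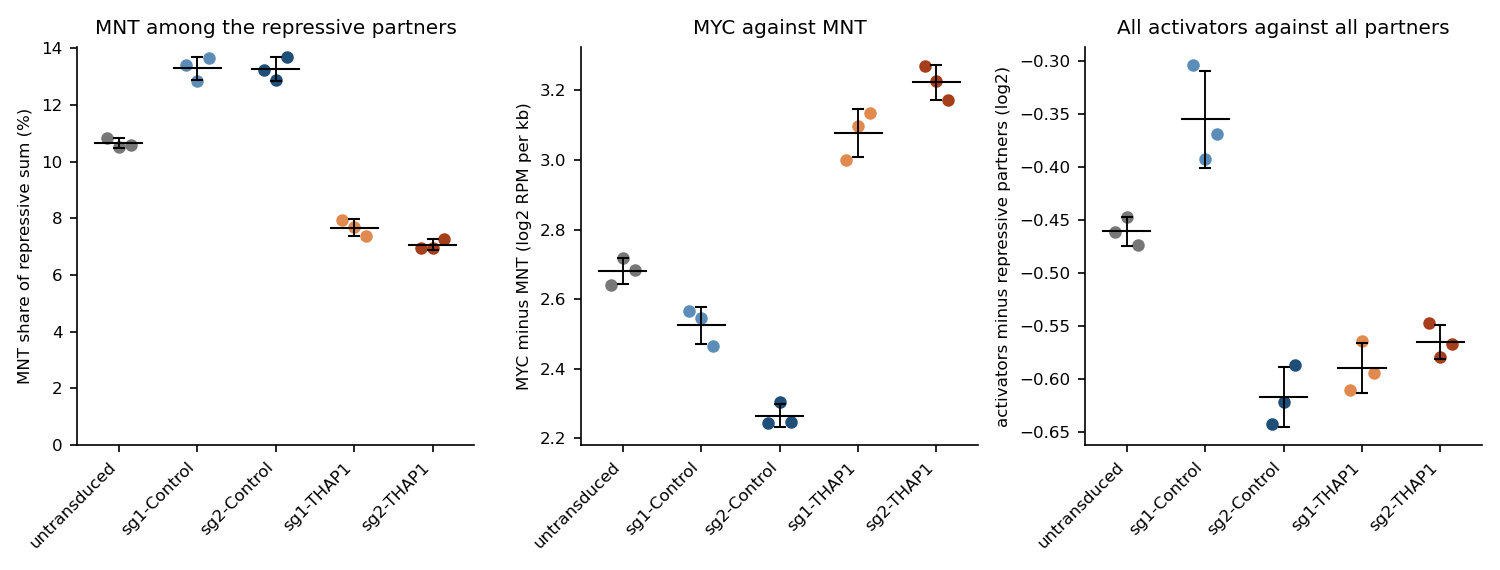
Share of MNT in the summed level of the repressive MAX partners (left, percent), MYC minus MNT (middle, log2 RPM per kb) and summed activators minus summed repressive partners (right, log2), in the 3 libraries of each group (points) with mean and SD. All panels are drawn with merged exon lengths. MNT's share and its gap to MYC set the sgTHAP1 libraries apart, while in the right panel the sgTHAP1 libraries lie within the range of the 2 control guides.

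Outside the 10 members, the network also holds MXD1, MLXIP and MLXIPL, of which 2 fell in sgTHAP1 against sgControl and 1 was not called. Over all tested genes 32.6% were lower and 20.2% higher. This list and those that follow were chosen with earlier results of these data known. A share of calls that differs from that of all tested genes is therefore a description and no independent support. MXD1, another MYC antagonist, rose from 3.79 to 4.19 log2 RPM in untransduced to 4.99 to 5.22 in sgControl libraries (log2 1.12 ± 0.071 SE, limma adjusted p = 2.73e-11) and fell to 4.29 to 4.38 in sgTHAP1 libraries (-0.75 ± 0.058, limma adjusted p = 1.70e-09). MLXIPL, the carbohydrate sensor ChREBP, lay at 4.89 to 4.91 without a guide, at 3.92 to 4.11 in sgControl libraries and at 2.96 to 3.51 in those of sgTHAP1 (sgTHAP1 against sgControl -0.82 ± 0.080, limma adjusted p = 3.57e-08). MLXIP was not called between sgTHAP1 and sgControl (0.08, limma adjusted p = 0.0996).

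Of 10 other factors that read E-boxes, 2 were higher, 2 lower and 6 not called in sgTHAP1 against sgControl (list median -0.03, all genes -0.06), which is near the 52.8% called over all tested genes. BHLHE40, a repressor of the circadian feedback loop, fell from 4.88 to 5.15 log2 RPM in sgControl to 3.97 to 4.21 in sgTHAP1 libraries (-0.96 ± 0.056 SE, limma adjusted p = 2.78e-11). USF1 rose by 0.16 (limma adjusted p = 0.0124). TFAP4 was higher by 0.17 (limma adjusted p = 0.0101), a call lost with sg2-THAP1 alone (0.06) and with array weights (0.11). TCF3 was lower by -0.09 (limma adjusted p = 0.0346), a call lost with sg1-THAP1 alone (-0.05), after quantile normalization (-0.06), with no filter on low values (-0.09) and without sg1-Control replicate 2, sg2-Control replicate 1 or 2 or sg2-THAP1 replicate 2 or 3 (-0.09 to -0.06), while median centring turned it to 0.02. In sgControl against untransduced cells 3 were higher and 5 lower, where 28.1% and 40.5% of all tested genes were. Among them TFE3, a lysosomal regulator, was higher by 0.36 (limma adjusted p = 2.12e-07) and TCF3 by 0.33 (9.18e-07).

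Of 21 cofactors of MYC and the MXD proteins, 5 were higher, 11 lower and 5 not called in sgTHAP1 against sgControl (list median -0.11, all genes -0.06), where 20.2% of all tested genes were higher and 32.6% lower. ZBTB17, the factor MIZ1 through which MYC represses genes, stood apart from them with a rise of 1.38 on the log2 scale (limma adjusted p = 2.19e-14), seen with sg1-THAP1 (1.40) and sg2-THAP1 (1.37). The acetyltransferase gene EP300 (-0.69, limma adjusted p = 2.68e-10) and the elongation factor gene CCNT1 (-0.69, 1.87e-09) fell. HCFC1, a cofactor that binds both MYC and THAP1, was lower by -0.21 (limma adjusted p = 0.00547), but at -0.04 with sg2-THAP1 alone it was not called. In sgControl against untransduced cells 13 of the 21 were higher and 2 lower, where 28.1% and 40.5% of all tested genes were, with HCFC1 up by 1.29 (limma adjusted p = 4.01e-12).

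Of 17 genes that mark, degrade or stabilize MYC protein, 4 were higher, 8 lower and 5 not called in sgTHAP1 against sgControl (list median -0.07, all genes -0.06). Over all tested genes 20.2% were higher and 32.6% lower. The kinase gene GSK3B (-0.45, limma adjusted p = 8.41e-08), the ubiquitin ligase gene HUWE1 (-0.32, 1.21e-06) and the deubiquitinase genes USP36 (-0.31, 3.62e-06) and USP22 (-0.30, 4.32e-09) fell. These have opposite roles, as GSK3B marks MYC for destruction and USP36 protects it. Against untransduced cells sgControl had 8 higher and 4 lower, where 28.1% and 40.5% of all tested genes were. USP36 was up by 0.88 (limma adjusted p = 8.34e-12) and the kinase gene GSK3A by 0.59 (1.19e-10).

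Of the 10 genes of the Polycomb complex around MGA, 2 were higher, 1 lower and 7 not called in sgTHAP1 against sgControl (list median 0.01). Over all tested genes 20.2% were higher and 32.6% lower. RING1, a ubiquitin ligase subunit, rose by 0.29 (limma adjusted p = 5.03e-07), and E2F6, a DNA-binding subunit, fell by 0.28 (limma adjusted p = 0.00176). RNF2, the other ubiquitin ligase of the complex, was higher by 0.13 (limma adjusted p = 0.0201), a call lost against sg2-Control alone (0.07) and without sg1-Control replicate 2 or sg1-THAP1 replicate 3 (0.11), and RYBP was not called (-0.15, limma adjusted p = 0.0625). In sgControl against untransduced cells 6 of the 10 were higher and 1 lower, where 28.1% and 40.5% of all tested genes were. TFDP1 was up by 0.47 (limma adjusted p = 1.26e-10) and L3MBTL2 by 0.52 (3.81e-09). Of 15 germline genes that this complex silences, 4 passed the filter on low values, and SYCE2 (0.81, limma adjusted p = 0.0289) and SMC1B (1.49, 0.0415) were higher, while STAG3 (-0.53) and ZCWPW1 (0.29) were not called. The levels of SYCE2 and SMC1B were near 1 RPM or under, and both calls were lost with sg1-THAP1 alone, at 0.38 for SYCE2, and with no filter on low values. For SYCE2 the call was lost in 9 of 28 alternatives. These included leaving out any single sg2-THAP1 library, sg1-Control replicate 3 or either of sg2-Control replicates 2 and 3 (0.65 to 0.77). SMC1B lost its call in 13 of 27 alternatives. Among them were leaving out replicate 2 or 3 of sg1-Control, sg2-Control or sg2-THAP1, or sg1-THAP1 replicate 3 (from 1.19 upward), and the replicate block (1.49, limma adjusted p = 0.0566).

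Genes that MYC is known to activate did not move one way with THAP1 guides. Of 67, 21 were higher, 22 lower and 24 not called in sgTHAP1 against sgControl. Over all tested genes 20.2% were higher and 32.6% lower. The list median was 0.03 against -0.06 over all genes, and none was past 2-fold. PPRC1, a coactivator of mitochondrial genes, fell by 0.54 (limma adjusted p = 9.50e-12), the ribosome assembly genes DDX21 and WDR43 fell by 0.41 and 0.34 (1.12e-10 and 3.36e-09), and HK2, a glycolytic enzyme, fell by 0.46 (1.59e-09). With control guides the same list moved: in sgControl against untransduced cells 56 were higher, 5 lower and 6 not called, where 28.1% of all tested genes were higher. Its median was 0.62 against -0.12 over all genes. At an adjusted p under 0.001, 11 were past 2-fold higher and 1 lower, where 2.29% and 8.76% of all tested genes were. PPRC1 was at 1.52 (limma adjusted p = 1.12e-17) and the nucleolar methyltransferase gene NOP2 at 1.23 (2.54e-15). MYC RNA was not higher in these libraries, as given above. MYC protein was not measured in them, and whether MYC had a part in the rise was not tested.

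Of 13 genes that MYC is known to repress, 12 were tested, and 8 were lower, 2 higher and 2 not called in sgTHAP1 against sgControl, where 32.6% of all tested genes were lower. Their median was -0.47, against -0.06 over all genes. CCND1, the G1 cyclin D1, fell from 6.06 to 6.32 log2 RPM in sgControl to 4.64 to 5.11 in sgTHAP1 libraries (-1.33 ± 0.069 SE, limma adjusted p = 4.36e-12). The growth arrest gene GADD45A fell by 1.15 (limma adjusted p = 2.84e-11) and the antiproliferative genes BTG2 and BTG1 by 0.98 and 0.45 (2.64e-09 and 1.56e-06). In sgControl against untransduced cells 8 were higher and 2 lower, where 28.1% of all tested genes were higher (median 0.40, all genes -0.12), led by GADD45B at 2.09 (limma adjusted p = 4.18e-11).

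Of 6 targets of MLX and MondoA, 2 were higher and 4 lower in sgTHAP1 against sgControl, where 20.2% and 32.6% of all tested genes were. In sgControl against untransduced cells 3 were higher and 3 lower, where 28.1% and 40.5% of all tested genes were. TXNIP, a glucose-responsive arrestin gene, had 5.91 to 5.98 log2 RPM without a guide, 2.58 to 2.94 with a control guide and 2.82 to 3.11 with a THAP1 guide. It fell with control guides by 3.11 on the log2 scale (limma adjusted p = 1.24e-16). Its difference of 0.17 between sgTHAP1 and sgControl lost its call in 14 of 28 alternatives: with sg1-THAP1 alone (0.10), against sg1-Control alone (0.11), with voom, with no filter on low values, and when any 1 untransduced or sg2-THAP1 library, sg1-Control replicate 3, sg1-THAP1 replicate 3 or either of sg2-Control replicates 1 and 3 was left out (0.13 to 0.18). The arrestin gene ARRDC3 fell with control guides by 1.24 (limma adjusted p = 8.79e-09) and rose with THAP1 guides by 0.55 (5.91e-05). KLF10 and PFKFB3, a transcription factor and a glycolytic regulator, fell with THAP1 guides by 0.80 and 0.69 (limma adjusted p = 9.31e-10 and 2.77e-10).

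**Figure D4:**
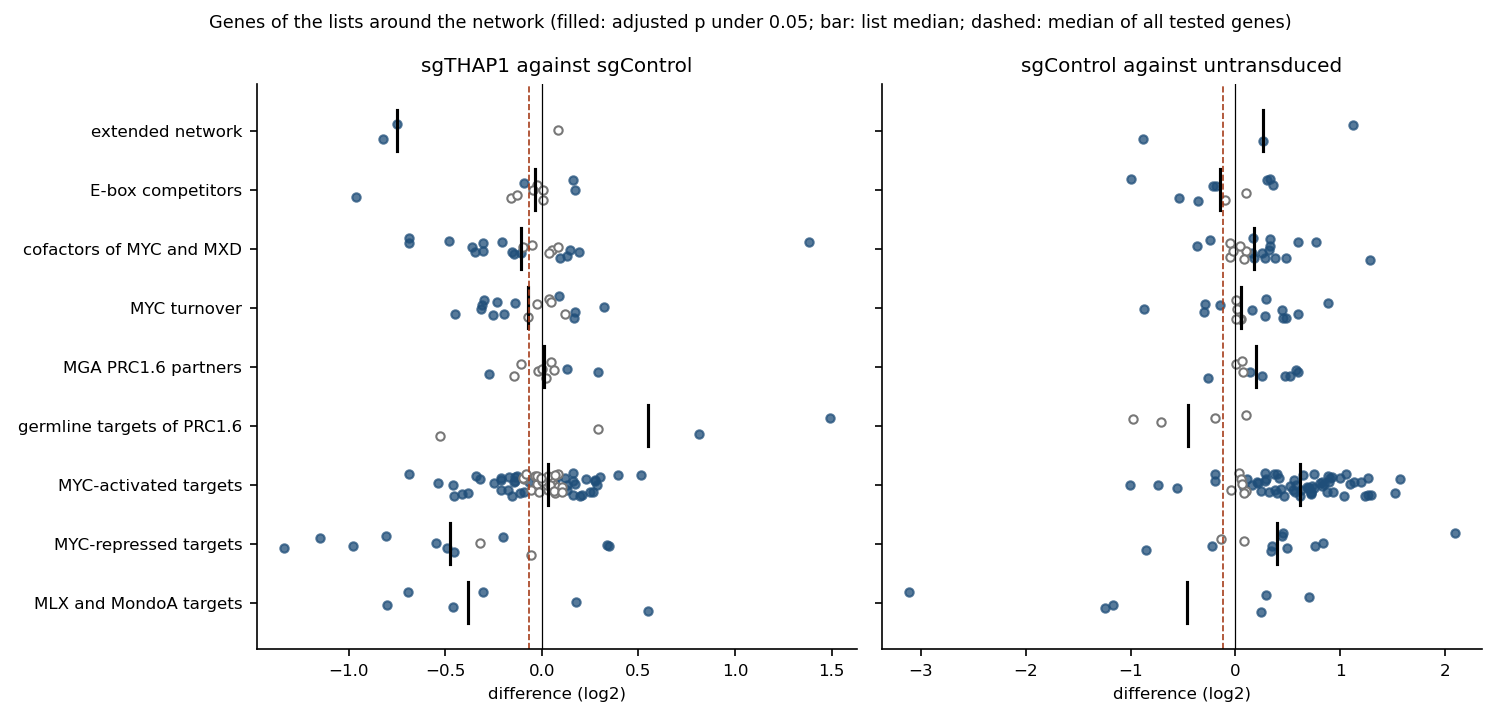
Log2 difference (x axis) of each tested gene (point, filled where the limma adjusted p was under 0.05) in 9 lists around the network (rows), with the list median (bar) and the median of all tested genes (dashed), in sgTHAP1 against sgControl (left) and sgControl against untransduced cells (right). The MYC-activated list centres at 0.03 on the left and at 0.62 on the right, and ZBTB17 is the rightmost cofactor on the left at 1.38.

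For members whose group means spanned at least 0.5 on the log2 scale, the 3 genes most like each over the 15 libraries were found by the root mean square difference after centring. PNRC1 (0.064), MID1 (0.079) and TPM4 (0.085) were nearest to MNT, and PNRC1 had mean levels of 5.69 in untransduced, 5.76 in sgControl and 4.76 log2 RPM in sgTHAP1 libraries. NFKB2 (0.085), BCAT1 (0.086) and PTCH1 (0.087) followed the falling steps of MXI1, with NFKB2 at 5.43, 4.85 and 4.23 log2 RPM. PUS7 (0.036), UTP11L (0.038) and DDX24 (0.040) were nearest to MAX, NAT14 (0.068), C4orf27 (0.071) and RPUSD3 (0.071) to MXD3, and ZNF114 (0.177), RP1-39G22.7 (0.198) and C8orf44 (0.199) to MYCL. For MYCN, with its few reads, the nearest gene, CTD-2227E11.1, lay at 0.775.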

How the data were processed

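The authors trimmed strand-specific polyA+ reads with Cutadapt, aligned them to GRCh38 with HISAT2 and analysed them in SeqMonk, and the values they deposited are log2 RPM per gene and library, a gene without reads being set to log2 of 0.9 read. The strand setting of the counting is not given in the sources used here, nor is the annotation release. The 10 deposited columns of the authors' means and fold changes were not used. Total reads were recovered from the lowest value of each library, taken as 0.9 read. At least 99.4% of the values above 0 in each library then came out whole within 0.01 of a read.

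Genes with log2 RPM of at least -2 in at least 3 of 15 libraries (16787 of 35805) were fitted with limma (version 3.58.1, R 4.3.3; lmFit and eBayes with trend, 1 coefficient per condition, or per guide for guide comparisons), with Benjamini-Hochberg adjustment over all of them, and the fit was tested on simulated data. Called means an adjusted p under 0.05. Lengths came from GENCODE 44 (merged exons), start regions from RefSeq. Replicates are biological per the paper, and no pair of libraries of a group agreed within sampling noise. Members and the 9 gene lists were chosen with earlier results of these data known. The genes named were the members and, per list, up to 4 with the smallest adjusted p in sgTHAP1 against sgControl and up to 2 in sgControl against untransduced cells, of which 2 genes are not reported here. Alternatives were another filter, pseudocount or normalization, voom, array weights, a replicate block, single guides and leaving out each library.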

Additional observations from a re-analysis of the deposited data

Results flagged for a closer look

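Members that differed between the 2 guides of a pair were the results picked out for a closer look. Between sg2-THAP1 and sg1-THAP1 the log2 differences past the limma threshold were 0.33 for MGA (adjusted p = 4.25e-08), -0.17 for MNT (0.0068), -0.15 for MXI1 (0.0226), -0.15 for MXD4 (0.00123) and -0.13 for MLX (0.00617). Between sg2-Control and sg1-Control they were -0.19 for MYC (adjusted p = 5.87e-05) and 0.21 for MXD3 (0.00426). For each of these 7 the 3 libraries of one guide did not overlap those of the other. As the 7 were picked by their calls, this is no further support, and the share over all tested genes is not given. MLX did not overlap between the control guides either, without a call (limma adjusted p = 0.195). Over all tested genes, the first comparison called 40.0% and the second 3.88%. What sets the guides apart was not tested.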

How the results depend on the processing

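The counts of called members stayed within 1.5 times of the reported ones under every alternative run, except that the control guides differed at 1 to 2 members when single libraries were left out (1 without sg1-Control replicate 3). Of 788 alternative values of the members in the 3 pooled comparisons, 706 kept their direction and side of the threshold, 31 lost and 14 gained a call, and 37 turned sign. Of 1835 values of named list genes, 1767 kept both, 67 lost the call and 1 turned sign. The replicate number used as a replicate block left 6, 9 and 7 members called in the 3 pooled comparisons, as without it (MNT -1.0, adjusted p = 5.20e-11), and same-numbered libraries correlated at -0.131 to 0.044 in their deviations, so the numbers do not pair libraries. Voom on the recovered reads called 8929 genes in sgTHAP1 against sgControl, 3465 higher and 5464 lower. MYCN failed the stricter filter and has no value there. It also failed the main filter, and has no value, without untransduced replicate 1 or 2 or sg1-Control replicate 3. Causes of the changes below were not tested.

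Members past 2-fold at an adjusted p under 0.001 in sgTHAP1 against sgControl went from 1 to 0 with a pseudocount of 0.5 RPM, quantile normalization, median centring, sg1-THAP1 alone and sg1-Control alone as control, and ranged from 0 to 1 when single libraries were left out. In sgTHAP1 against untransduced cells they went from 2 to 1 with median centring, which shifted all genes: over sgTHAP1 against sgControl it gave 5363 higher and 3742 lower genes, against 3390 and 5476, and 3 higher and 3 lower members, against 1 and 5. Over the 2 comparisons with untransduced cells it gave 3 and 5 members higher and 4 and 5 lower.

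Signs turned mostly near 0. With median centring the log2 difference in sgTHAP1 against sgControl was 0.105 for MYCL, 0.0348 for MAX and 0.0236 for TCF3. In sgControl against untransduced cells it was 0.0131 for MYC and 0.116 for MGA. In sgTHAP1 against untransduced cells it was 0.145 for MXD3, 0.244 for MXD4, 0.144 for MLX and 0.246 for MGA, each called higher. Between the THAP1 guides it was -0.0781 for MAX and -0.0749 for MXD3. Quantile normalization gave 0.138 for MYCL in sgTHAP1 against sgControl and -0.0525 for MAX and -0.0417 for MXD3 between the THAP1 guides. Voom gave MYCL 0.0332 in sgTHAP1 against sgControl and 0.0256 between the control guides, and array weights gave it 0.00757 and 0.0144, and MGA 0.0515 in sgTHAP1 against untransduced cells.

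With sg1-THAP1 alone against sgControl MYCN was at 0.422, MYCL at 0.0217 and MGA at -0.150, and MXD4 was at 0.0499 against untransduced cells. With sg2-THAP1 alone MGA was at 0.141 against untransduced cells, and with sg2-Control alone as control MYCN was at 0.176 and MYCL at 0.00352. Leaving out single libraries moved sgTHAP1 against sgControl over -0.447 to 0.0746 for MYCN, -0.0883 to 0.0694 for MYCL and -0.0330 to 0.0578 for MGA, and sgTHAP1 against untransduced cells over -0.0503 to 0.00156 for MXD4 and -0.0734 to 0.0174 for MGA. Between the THAP1 guides it moved MYCL over -0.173 to 0.119 and MXD3 over -0.0306 to 0.0558, and between the control guides MYCL over -0.229 to 0.115.

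The ratio of summed activators to repressive partners, at -0.0910 in sgTHAP1 against sgControl, was -0.240 with canonical lengths. In sgControl against untransduced cells, at -0.0253, it was 0.0416 with MYC alone against MNT, MXI1, MXD3 and MXD4, 0.0599 with canonical lengths and -0.0617 to 0.00602 without single libraries. In sgTHAP1 against untransduced cells, at -0.116, it was -0.0938 without MGA, -0.0407 with MYC alone and -0.180 with canonical lengths. Depth limits MYCN, at 0 to 15 reads a library, more than the other members.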
